A study of Mus musculus with 12 samples.

Results

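Histone H3 acetylated at lysine 27 (H3K27ac) was examined in gene deserts, the long stretches between protein-coding genes, in whole cortex of E15.5 mouse embryos. Peaks of 6 libraries that overlapped or touched were merged into 85918 regions. Of these, 39635 had a peak in all 6 libraries, were under 10000 bp wide and lay on the main chromosomes, and 4577 of them (11.5%) lay more than 100 kb from the body of every protein-coding gene. These 4577 regions, called desert regions below, are the subject here. They were chosen by measured values, the presence of a peak in all 6 libraries and the merged width, and by position, so presence, width and distance are given as descriptions only.

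The cKO embryos carried Emx1Ires-Cre together with Prdm16 flox/flox, and the WT embryos carried Prdm16 flox/flox without Cre, so both genotypes share the floxed allele. Emx1-driven Cre acts in progenitors of the dorsal forebrain and their progeny, while the sample was a lysate of whole cortex, which also holds cells that never expressed Cre. Each genotype had 3 H3K27ac libraries from micrococcal nuclease-digested native chromatin; the 6 input libraries were not analysed here. The labels do not state if replicates are separate embryos, so p-values rest on a spread between samples that may be technical. By the library identifiers in the file names, batch A holds cKO and WT replicates 1 and 2, and batch B holds cKO and WT replicate 3.

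H3K27ac marks active enhancers and promoters. Enhancers of developmental genes often lie far from the gene they act on, and several cortical transcription factor genes are flanked by long stretches without other coding genes. PRDM16 is a chromatin regulator with zinc fingers that acts in neural progenitors. A peak list does not say which gene a distal region acts on, and flanking genes are named below only as landmarks.

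The cKO lists held 59209, 58682 and 55015 peaks, against 66493, 75563 and 48168 in the WT lists. Lists give no read counts, so depth is unknown. WT replicate 2 had the longest list and WT replicate 3 the shortest. Results without one of them are given only where stated. Over the body of Prdm16, peaks covered 89809, 87867 and 82642 bp in cKO and 87934, 92535 and 56724 bp in WT. The position of the floxed part is not in the sources used here, so this checks nothing about its deletion. A peak within 2 kb of either gene end was present in all 6 libraries at 9 of 10 cortical marker genes and at 6 of 7 marker genes of ventral forebrain interneurons. The same held for 0 of 5 vascular, 1 of 4 microglial, 1 of 4 meningeal, 1 of 3 blood and 1 of 4 oligodendrocyte marker genes, and for 0 of 6 genes of tissues outside the forebrain.

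The strongest desert regions lay at a pair of long non-coding RNA genes named after microRNAs, so their sequences are shown first. As annotated, Mir100hg (chr9:41376526-41615185) holds the microRNA hairpins of its desert. Mir99ahg (chr16:77329328-77558428) ends before Mir99a and Mirlet7c-1 and does not hold them. Strength here is the lowest −log10 q of a region over the 6 libraries, as the authors' peak caller gave it. The leading region, chr16:77416055-77423834 in mm10, overlapped the non-coding genes Mir99ahg and 9430053O09Rik between Usp25 and Cxadr, 299.3 kb from the nearest coding gene. The second, chr9:41374102-41380649, lay at the start of Mir100hg between Ubash3b and Gm40514. In both deserts a start window of Mir99ahg or Mir100hg, from 250 bases before to 50 bases after an annotated start, lay whole inside a desert region. They are printed 5′ to 3′ on the strand of the gene, from RefSeq on GRCm38.p6, the assembly behind mm10, with CG dinucleotides in capitals:
Mir99ahg (chr16:77329078-77329377, plus strand): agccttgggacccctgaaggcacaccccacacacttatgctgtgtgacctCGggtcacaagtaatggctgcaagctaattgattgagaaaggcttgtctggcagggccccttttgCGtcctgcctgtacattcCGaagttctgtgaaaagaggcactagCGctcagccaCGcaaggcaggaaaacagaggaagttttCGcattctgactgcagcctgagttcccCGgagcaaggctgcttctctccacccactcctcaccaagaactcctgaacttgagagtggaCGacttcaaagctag
9430053O09Rik (chr16:77420333-77420632, minus strand): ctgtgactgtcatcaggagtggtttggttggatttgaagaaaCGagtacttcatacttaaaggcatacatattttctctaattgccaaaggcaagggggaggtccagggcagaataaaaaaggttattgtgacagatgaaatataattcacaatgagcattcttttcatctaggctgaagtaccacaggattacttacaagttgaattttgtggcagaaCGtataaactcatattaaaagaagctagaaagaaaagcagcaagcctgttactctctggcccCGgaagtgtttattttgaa
Mir100hg (chr9:41376276-41376575, plus strand): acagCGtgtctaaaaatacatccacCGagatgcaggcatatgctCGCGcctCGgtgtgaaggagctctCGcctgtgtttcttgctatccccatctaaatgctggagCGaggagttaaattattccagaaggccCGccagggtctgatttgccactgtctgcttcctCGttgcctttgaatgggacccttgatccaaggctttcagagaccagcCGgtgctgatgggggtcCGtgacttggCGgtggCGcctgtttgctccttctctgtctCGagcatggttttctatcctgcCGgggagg
The printed Mir100hg window held 15 CG dinucleotides, the Mir99ahg window 8 and the 9430053O09Rik window 3. Another start window of Mir100hg, chr9:41474643-41474942, also lay whole inside a desert region, is not printed and held 4 CG dinucleotides. The motif CG reads the same on both strands. At least 10 of them were present in 13.95% of the 215 start windows inside desert regions, in 19.2% of 11373 other non-coding windows and in 56.8% of 21263 protein-coding windows.

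RefSeq listed 143 microRNA hairpins in deserts that held a desert region, of 1005 in the table, and 11 of them lay within 10 desert regions. A selection of mature microRNAs, with a single arm of each hairpin, is given for the 2 deserts just named, for Mir137 and for the Mir344 family, because the seeds (bases 2 to 8, in capitals) show which of them are alike:
miR-99a-5p: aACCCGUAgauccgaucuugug
let-7c-5p: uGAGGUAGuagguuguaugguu
miR-100-5p: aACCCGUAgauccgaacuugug
miR-125b-5p: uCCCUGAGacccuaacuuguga
miR-137-3p: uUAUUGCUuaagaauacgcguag
miR-344c-5p: aGUCAGGCugcuggcuagaguac
miR-344g-5p: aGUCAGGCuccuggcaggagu
miR-344-5p: aGUCAGGCuccuggcuagauuccagg
miR-344f-5p: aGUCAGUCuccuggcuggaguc
miR-344i: aAGUCAGGcuccuggcugga
miR-99a-5p and miR-100-5p share the seed ACCCGUA, one from each desert. let-7c is a member of the let-7 family, which is known for its part in developmental timing. miR-125b is the mammalian relative of lin-4 of worms.

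The region that holds Mir99a and Mirlet7c-1, chr16:77591608-77599995, was the weakest of the 10 strongest regions. Its peaks had a fold enrichment over background, in the peak caller's own values, of 22.6, 22.0 and 17.9 in cKO and of 20.6, 19.7 and 16.3 in WT. Peaks covered 7623, 7564 and 7483 bp of it in cKO and 8300, 8149 and 7302 bp in WT, so the genotypes overlapped. In the other desert the 3 hairpins lay outside the desert regions: Mir100 was 4282 bp and Mirlet7a-2 9573 bp from the nearest one. Mir125b-1, 10172 bp from the nearest one, lay in a shared region of 16195 bp that the width limit left out.

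**Figure D1:**
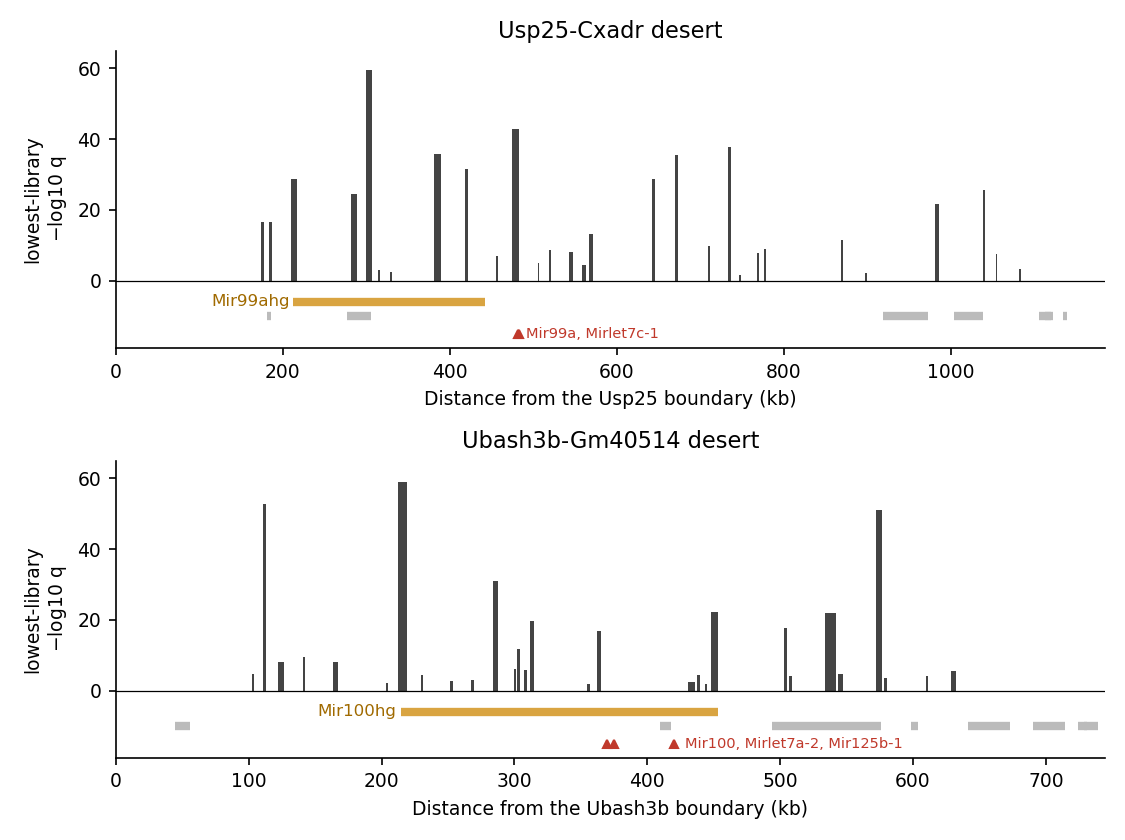
Desert regions of the Usp25-Cxadr desert (top) and the Ubash3b-Gm40514 desert (bottom), 29 in each, by distance in kb from the boundary of the first-named gene; bar height is the lowest −log10 q over the 6 libraries. Orange bars mark the genes Mir99ahg and Mir100hg, grey bars the other long non-coding RNA genes and red triangles the microRNA hairpins. The tallest bar of each desert, at 59.5 and 59.0, overlaps the orange gene. Mir99a and Mirlet7c-1 lie beyond the end of Mir99ahg, under the bar of 43.0.

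Mir137, whose product is a brain-enriched microRNA, lay inside chr3:118429751-118436012 between Snx7 and Dpyd, with a lowest −log10 q of 15.7. Peaks covered 5359, 5346 and 4600 bp of that region in cKO and 6262, 5673 and 5194 bp in WT, so the genotypes overlapped. Scaled to the same total covered length in every library, the means were 5369 bp in cKO and 5655 bp in WT, with a log2 change of -0.05. Another 6 of the 11 hairpins were members of the Mir344 family, all on the minus strand of chromosome 7 between Gm51483 and Ndn: Mir344c, Mir344, Mir344-2, Mir344g, Mir344f and Mir344i. The table holds 13 Mir344 hairpins, all of them in this desert. miR-344c-5p, miR-344g-5p and miR-344-5p share the seed GUCAGGC. The strongest of their 6 regions, around Mir344, had a lowest −log10 q of 19.4 and the weakest, around Mir344i, one of 2.85. miR-344f-5p has the seed GUCAGUC and miR-344i the seed AGUCAGG. RefSeq gives Mir344 and Mir344-2 the same mature sequences, and how reads that match both were placed is not given in the sources used here, so the values of that pair are uncertain. The last 2 hairpins were Mir6368, beside Sox4, and Mir802, between Runx1 and Setd4.

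Desert regions were less strong than shared regions elsewhere. The median over the 4577 regions of the lowest −log10 q was 4.32, against 6.66 over the 35058 other shared regions under 10000 bp, and the median width was 1434 bp against 1677 bp. Ranked within each library's own list by −log10 q, the median desert region stood at the percentile 56.2, 55.4 and 51.6 in cKO and 62.2, 66.3 and 47.6 in WT. Shared regions in gene bodies stood at 70.2, 70.2 and 67.9 in cKO and at 73.6, 76.9 and 63.0 in WT. The median percentile of desert regions was thus below that of gene-body regions in each of the 6 libraries. Shared regions 2 to 100 kb from a gene were closer, at 59.9, 59.2 and 56.2 in cKO and 64.1, 68.4 and 50.6 in WT, and again above the desert regions in every library. In the strongest 10% of a list stood 3.89%, 3.45% and 3.52% of the desert regions in cKO and 4.83%, 5.37% and 3.34% in WT, against 15.0% to 23.8% of gene-body regions over the libraries. The share with a peak in all 6 libraries was also counted, over merged regions under 10000 bp on the main chromosomes. It was 38.6% beyond 100 kb, 42.8% at 2 to 100 kb from a gene, 38.3% up to 2 kb away and 49.4% in gene bodies. The share beyond 100 kb was thus not the lowest.

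**Figure D2:**
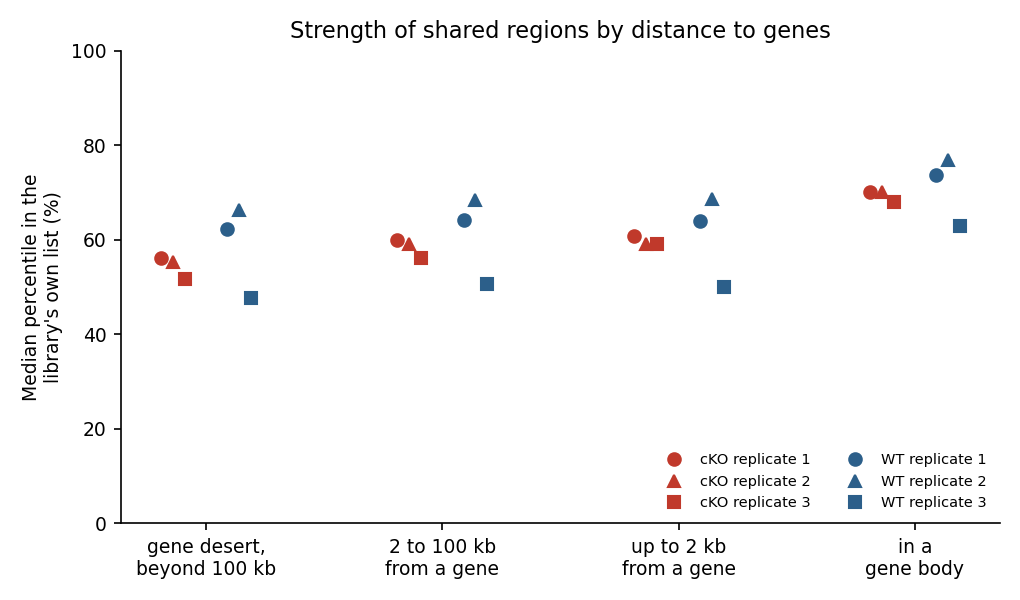
Median percentile of shared regions in each library's own peak list, ranked by −log10 q, for 4 classes by distance to a protein-coding gene; red symbols are cKO and blue symbols WT libraries, with a symbol for each replicate. Desert regions sit between 47.6 and 66.3 and gene-body regions between 63.0 and 76.9, with the desert value below the gene-body value in each library.

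The 4577 regions lay in 888 of 1689 gaps between neighbouring coding genes that were long enough to hold one, that is 52.6%. The 1689 include gaps on the X and Y chromosomes and stretches before the first gene of a chromosome. No desert region lay on Y, where 47.3 Mb is more than 100 kb from the flanking genes. A single region was present in 225 of the 888 deserts and 2 regions in 159. The other 504 deserts held 3 or more regions each, called clusters here, and together 4034 regions (88.1%). Deserts of 10 or more regions numbered 126 and held 45.5% of all desert regions. Neighbouring regions of one desert lay a median of 34.2 kb apart, and 19.0% of the 3689 spacings were within 10 kb. Distance to the nearest coding gene had a median of 225 kb, and 157 regions in 43 deserts were more than 1000 kb away. The largest such groups were 16 regions between Celf4 and Pik3c3, where the farthest region of all lay 2237 kb from a gene, and 16 between Slc10a2 and Efnb2.

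The fullest desert, on chromosome 5 between Mn1, a transcriptional co-regulator, and Cryba4, a lens crystallin, held 45 regions. Counted over the part of the desert that lies more than 100 kb from both genes, this was 76.3 per Mb, against 6.84 per Mb over all such territory on the autosomes. The second, on chromosome 11 between Bcl11a, a zinc-finger transcription factor of cortical projection neurons, and Fancl, an enzyme of DNA repair, held 44 (21.9 per Mb). The desert between the zinc-finger gene Zfp608 and Gramd3 held 39, and that between Celf4, which encodes a neuronal RNA-binding protein, and Pik3c3, a lipid kinase, held 34. The Celf4 desert is so long that its density, at 7.89 per Mb, was the lowest of the 12 fullest.

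Transcription factors and guidance genes bordered several of the next deserts. The desert between Rps24, a ribosomal protein, and Zmiz1, a transcriptional co-activator, held 33 regions, as did that between Slc4a3, an anion exchanger, and Epha4, an ephrin receptor that guides axons. The desert between Tmem182 and Pou3f3, a POU-domain factor of upper-layer neurons, held 32. That between Prl5a1 and Sox4, a factor of newborn neurons, held 30, and that between Slc10a2, a bile acid transporter, and Efnb2, a membrane-bound ephrin, also held 30. The desert between Rnf144b and Id4, an inhibitor of helix-loop-helix factors in neural progenitors, held 29, of which 22 lay nearer Id4 than Rnf144b. The Mir100hg and Mir99ahg deserts held 29 each, as did 2 deserts tied with them, Auts2-Castor2 and Tenm2-Mat2b.

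**Figure D3:**
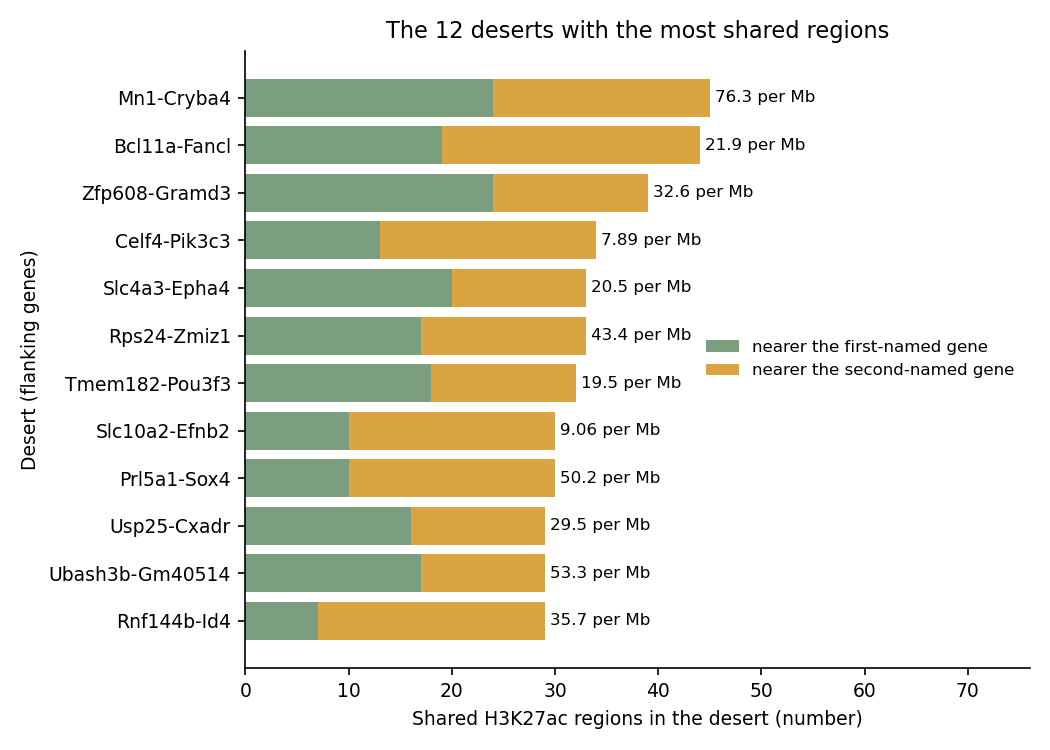
Number of desert regions in the 12 deserts with the most of them, divided by which flanking coding gene is nearer, with the density per Mb of territory over 100 kb from both genes. Mn1-Cryba4 leads with 45 regions at 76.3 per Mb, and Celf4-Pik3c3 has 34 at 7.89 per Mb; 2 more deserts with 29 are not drawn.

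The strongest region of these deserts differed in rank from the desert's count. In Mn1-Cryba4 it was chr5:111718210-111726779, with fold enrichments of 12.4, 14.5 and 13.8 in cKO and 17.5, 14.4 and 13.0 in WT. In Bcl11a-Fancl it was chr11:26209009-26211464 at the non-coding gene 5730522E02Rik, with 21.5, 19.97 and 16.0 in cKO and 16.9, 20.4 and 18.5 in WT. Id4's desert had none above a lowest −log10 q of 10.8, although it held 29 regions. In the Sox4 desert the strongest, chr13:28413748-28421212, had a fold enrichment of 22.1, 22.1 and 16.5 in cKO and of 19.5, 18.6 and 16.3 in WT, and overlapped the non-coding gene Gm40841. Each of these values is on the scale of its own list.

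Not every long gap held a region. One without any, 2501 kb between Adam6a and Zfp386 on chromosome 12, is known as the place of immunoglobulin heavy chain segments, which the table does not list as protein-coding genes. Another, of 2613 kb, lay beside Lrfn5, which encodes a synaptic adhesion molecule, and Fscb. Density also varied by chromosome, and was 11.0 per Mb on chromosome 13, with 372 regions, and 1.48 per Mb on the X chromosome, with 82.

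Lists of genes were then set beside the deserts. They were chosen with earlier results of these data known, so their counts are descriptions. Of 106 transcription factors of the developing cortex, 67 (63.2%) bordered a desert with a desert region and 26 bordered one with 10 or more, against 7.28% and 1.12% of all 21779 coding genes. Many of these genes also border a gap over 200 kb, 77 of the 106 against 2796 of 21779. Among genes beside such a gap, 87.0% of the cortical factors and 56.7% of all coding genes bordered a desert region. Adding both sides, Bcl11a had 44 regions, Sox11, a relative of Sox4 in newborn neurons, 41, Pou3f3 32 and Sox4 30. Sox2, a factor of neural progenitors, and Id4 had 29 each.

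Of 105 genes of axon guidance and cell adhesion, 75 (71.4%) bordered a desert region and 18 a desert with 10 or more. Of the 105, 86 border a gap over 200 kb. Among those, 87.2% bordered a desert region, against 56.7% of all coding genes beside such a gap. Epha4 had 35 regions over both sides, the adhesion receptor Adgrl2 33, Flrt2, a guidance ligand, 31, Efnb2 30, Tenm2, a synaptic adhesion molecule, 29, and the ephrin receptor Epha7 28. Plxna2, a semaphorin co-receptor, also had 28. Of 70 secreted signals and their receptors, 32 (45.7%) bordered a desert region and 1, Bmp7 with 10 regions, a desert of 10 or more. Beside a gap over 200 kb were 40 of the 70, of which 80% bordered a desert region. Fgf9, Fgfr2 and the Wnt receptor gene Fzd8 had 9 each, and the desert between Sntb1 and Has2 held 4. Neither Prdm16 nor Emx1 bordered a desert region.

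Non-coding genes ran through part of the deserts. Of the 4577 regions, 1113 (24.3%) overlapped a gene of another type, 1082 of them a long non-coding RNA gene, and 182 (3.98%) held a whole start window. Among the 100 strongest regions these numbers were 43 and 19. Besides the regions at Mir99ahg and Mir100hg, the strongest of this kind were chr1:137897619-137907228 at Gm4258, chr9:41733969-41738385 at Gm35835, the region at 5730522E02Rik given above, chr7:58397626-58400139 at the transfer RNA gene n-TEttc7, chr17:88255543-88257740 at Gm31615, the region at Mir99a and Mirlet7c-1, chr18:28077126-28078975 at Gm33860 and chr12:50997172-51005355 at Gm40421 and 1700008C04Rik. Of the 10 strongest regions, only chr9:41272454-41274760 and chr10:97312117-97314965, near Dcn, overlapped no annotated gene. Just inside the 100 kb threshold were regions at 100030, 100062 and 100080 bp from Cdh6, Smim23 and Diras2, and just outside it regions at 99995, 99977 and 99967 bp from Ier5, Plcl2 and Tshz1. The width limit left out a strong region of 10245 bp between Usp25 and Cxadr, with a lowest −log10 q of 53.0, and regions of 10004 bp beside Pou3f3 and 10279 bp beside Prkd1. The widest desert regions kept had 9610, 9587 and 9587 bp, near Ptprc, Csnk1g3 and Tcf4.

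The last comparison asked whether peaks covered desert regions to a different extent in cKO than in WT cortex. Summed over the 4577 regions, they covered 5.73, 5.47 and 5.20 Mb in cKO and 6.42, 6.84 and 4.58 Mb in WT. As a share of each library's whole covered length, this was 7.86%, 7.73% and 8.18% in cKO and 7.71%, 7.43% and 8.51% in WT. In whole cortex, fewer cells with a mark and less of the mark per cell cannot be told apart. The shares of the genotypes overlapped, and the highest share in each genotype was that of replicate 3. Scaled to the same total covered length in every library, the sums averaged 5.76 ± 0.168 Mb in cKO and 5.73 ± 0.407 Mb in WT (SD, n = 3 each), a log2 ratio of 0.0079, which is smaller than the spread between replicates. The difference, cKO minus WT, was 0.166 Mb in batch A and -0.237 Mb in batch B, which holds 1 library per genotype. Without scaling the log2 ratio was -0.121, and with peaks of a −log10 q of at least 5 it was -0.0888.

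**Figure D4:**
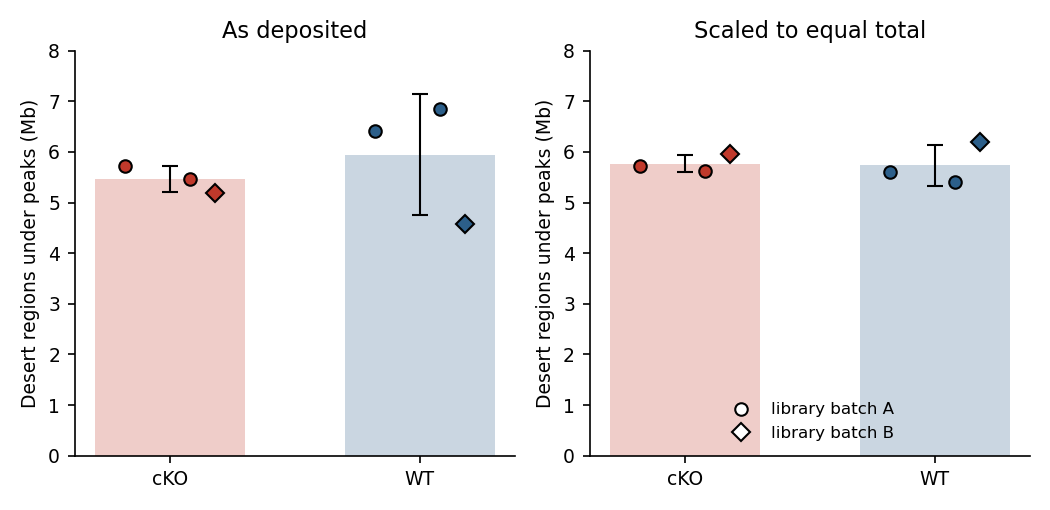
Length of the 4577 desert regions under peaks in Mb, as deposited (left) and scaled to equal total covered length (right), for cKO (red) and WT (blue); bars are means, error bars SD (n = 3) and symbols single libraries by batch. The scaled libraries sit between 5.62 and 5.95 Mb in cKO and between 5.40 and 6.19 Mb in WT.

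Single regions were tested with limma on log2(scaled covered bp + 100), with batch as covariate and Benjamini-Hochberg adjustment over all 39889 shared regions. At an adjusted p under 0.05, 0 desert regions were longer and 0 shorter in cKO, against 0.0% and 0.00251% of all shared regions called. The smallest adjusted p of a desert region was 0.0681. At an unadjusted p under 0.05, limma gave 312 longer and 345 shorter desert regions, 14.4% of them. This compares with 10.3% of all shared regions (5.8% longer and 4.46% shorter), and these counts carry no adjustment. The share was 12.5% in shared regions 2 to 100 kb from a gene, 13.7% up to 2 kb away and 8.88% in gene bodies. Ranked by lowest −log10 q, 21.8% of the weakest 25% of desert regions had such a p, and 6.73% of the strongest 25%. The 3 cKO values lay all above or all below the 3 WT values in 735 desert regions (16.1%), against 12.5% of all shared regions. By class this was 14.9% at 2 to 100 kb from a gene, 14.8% up to 2 kb away and 11.2% in gene bodies. The median log2 change was 0.03 over desert regions and 0.07 over all shared regions. Over 14 distinct alternative fits, 0 to 25 desert regions passed as longer and 0 to 59 as shorter, most with peaks of a −log10 q of at least 5. That cutoff sets a region to 0 bp in any library whose peaks there all fall below it. The absence of calls thus depends on the setting. The shares of all shared regions called in these fits are not given here, so the counts do not compare desert regions with the rest. Leaving out replicate 3 of either genotype gives the same fit as batch A alone, since the batch term absorbs the library that is left.

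The leading regions at Mir99ahg and Mir100hg had log2 changes in scaled length of 0.12 and 0.04. The lengths that follow are unscaled. Peaks covered 7775, 7728 and 7759 bp of the first in cKO and 7756, 7742 and 7610 bp in WT, nearly its full width of 7780 bp in every library. For the second they covered 6349, 6345 and 5484 bp in cKO and 6531, 6458 and 6022 bp in WT. A region that is covered nearly whole in every library can show no gain in length, so covered length says little about height there. Scaling took the first region past its own width, to 8881 bp in cKO replicate 3 and 10276 bp in WT replicate 3. Its log2 change thus carries the scaling of the lists and is not a gain in length. The second had a positive log2 change although its unscaled lengths were not longer in cKO.

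No desert region passed, so the 5 with the smallest p in each direction are given by their values. Of these 10, 0 passed without WT replicate 1, 2 or 3 or without cKO replicate 3. Without cKO replicate 1, 7 passed, and without cKO replicate 2, 4 did. All 10 kept their direction in each of these fits. The largest negative change was that of chr4:24240743-24244374, between Pou3f2, a POU-domain factor of upper-layer neurons, and Mms22l, a DNA repair gene and the nearer of the pair. Peaks covered 281, 457 and 242 bp of it in cKO and 3543, 2217 and 1078 bp in WT. All 3 cKO values lay below all 3 WT values, with a log2 change of -2.27 (SE 0.26, limma adjusted p = 0.0693). Over the alternatives the adjusted p in limma ran from 0.0162 to 0.350, and 6 passed. The lowest came from the fit that took same-numbered libraries as pairs, a pairing not adopted here. Another that passed used peaks of a −log10 q of at least 5, a cutoff that no cKO peak of this region reached. The strongest peak in it had a fold enrichment of 3.47, 2.98 and 3.80 in the cKO lists and 5.69, 6.30 and 5.10 in the WT lists, each on its own list's scale.

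The smallest p of all belonged to chr11:27203198-27204554 between Vrk2 and Ccdc85a. It was covered over 242, 261 and 158 bp in cKO and 999, 1357 and 692 bp in WT (log2 change -1.69, SE 0.16, limma adjusted p = 0.0681). Over the alternatives the region's adjusted p in limma ran from 0.0162, in the fit with same-numbered libraries as pairs, to 0.749. Its strongest peak had a fold enrichment of 6.53, 4.08 and 4.70 in the cKO lists and 4.63, 4.55 and 4.86 in the WT lists, so the values of the genotypes overlapped although the covered lengths did not. The next desert, between Ccdc85a and Efemp1, held chr11:28692592-28694428, with 540, 527 and 602 bp in cKO and 1582, 1837 and 1498 bp in WT (log2 change -1.31).

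The others were chr8:30226768-30228061, between Unc5d, a netrin receptor, and the nearer gene Dusp26, a phosphatase, at -1.71, and chr1:73417377-73419237 between Tnp1 and Tns1 at -1.90. The adjusted p in limma was 0.0693 to 0.0759 for these 2 and the Ccdc85a-Efemp1 region. In the Unc5d-Dusp26 region the strongest peak had a fold enrichment of 4.63, 3.81 and 5.49 in the cKO lists and 4.60, 3.83 and 4.45 in the WT lists, again overlapping. In the Tnp1-Tns1 region it was 3.67, 4.36 and 3.42 in cKO and 5.24, 5.23 and 6.23 in WT, with all cKO values below, and in the Ccdc85a-Efemp1 region 3.27, 4.34 and 4.48 in cKO and 4.16, 4.09 and 5.61 in WT, which overlapped.

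The smallest p among positive changes was that of chr2:133077218-133079116, between Fermt1, the nearer gene, and Bmp2, a secreted growth factor. It was covered over 1821, 1448 and 1437 bp in cKO and 547, 687 and 458 bp in WT (log2 change 1.44, SE 0.16, limma adjusted p = 0.0693). Over the alternatives the adjusted p in limma ran from 0.00103 to 0.396, and 5 passed. The lowest came with peaks of a −log10 q of at least 5, a cutoff that removed every WT peak of the region. The highest −log10 q in this region was 6.62, 6.45 and 5.24 in cKO and 2.47, 3.33 and 2.05 in WT. The strongest peak in it had a fold enrichment of 5.09, 4.90 and 4.91 in the cKO lists and 3.44, 3.66 and 3.53 in the WT lists. The other 4 were chr14:25310800-25313389, between Rps24 and the nearer gene Zmiz1, at 1.44, chr11:16627402-16628988, between the nearer gene Sec61g and Egfr, a growth factor receptor, at 1.23, chr8:121289058-121291053, between the nearer gene Foxl1 and 1700018B08Rik, at 1.54, and chr12:71560518-71561938 between Dact1 and Daam1, 2 genes of Wnt signalling, at 1.60. Their adjusted p in limma was 0.0755 to 0.0987.

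In the Zmiz1 region the strongest peak had a fold enrichment of 3.46, 3.43 and 3.85 in cKO and 3.90, 5.14 and 4.31 in WT, lower in cKO where the covered length was longer, and the log2 change turned to -0.76 with peaks of a −log10 q of at least 5. The Foxl1 region gave a change of 0 in that setting. The fold enrichments of the genotypes overlapped in the Sec61g-Egfr region, at 5.91, 5.10 and 6.07 in cKO and 5.76, 5.68 and 4.30 in WT. They also overlapped in the Foxl1 region, at 4.12, 3.66 and 3.995 in cKO and 3.90, 3.28 and 4.15 in WT, and in the Dact1-Daam1 region, at 5.18, 4.32 and 5.59 in cKO and 4.29, 4.94 and 7.26 in WT.

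**Figure D5:**
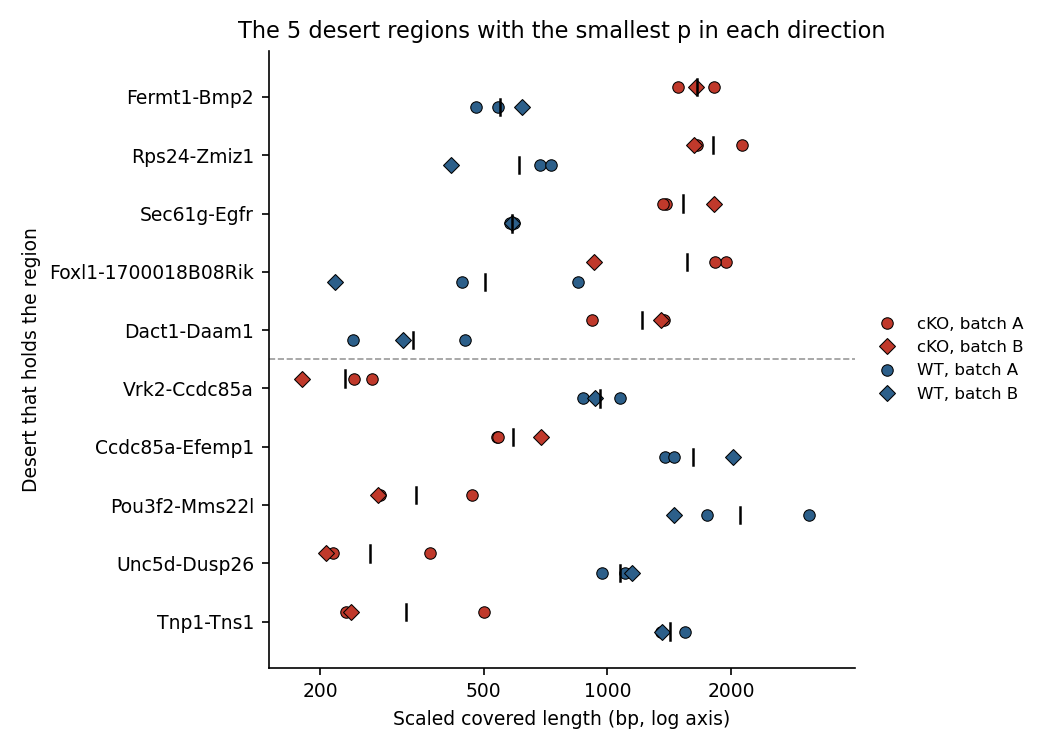
Covered length of the 10 desert regions with the smallest p, scaled to equal total covered length, in bp (log axis), by the desert that holds each; the 5 longer in cKO stand above the dashed line and the 5 shorter below it. Red symbols are cKO and blue symbols WT libraries, circles are batch A and diamonds batch B, and vertical ticks are means (n = 3 each); in Pou3f2-Mms22l the cKO mean is 342 bp and the WT mean 2101 bp.

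Summed by desert, none of the 12 fullest deserts separated the genotypes in scaled covered length. The Mn1-Cryba4 desert had 89249, 79658 and 76742 bp under peaks in cKO and 98362, 100830 and 69628 bp in WT, and 86251 ± 3870 scaled bp in cKO against 86536 ± 7202 in WT (SD, n = 3). The Slc10a2-Efnb2 desert had the largest ratio of the 12, at -0.19 on the log2 scale. Over the 126 deserts of 10 or more regions the log2 ratio had a median of 0.02 and ran from -0.42 to 0.43. All 3 cKO values lay above all 3 WT values in 11 of them (8.73%) and below in 10 (7.94%), against 8.78% and 8.56% of all 888 deserts.

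The 2 most extreme deserts of 10 or more regions in each direction were chosen after their values were seen, so their sums are described with no test. Pou3f2-Mms22l, with 19 regions, had 36780, 30529 and 29431 bp under peaks in cKO and 48530, 49574 and 40277 bp in WT. In scaled length this was 33920 ± 2680 bp in cKO and 45316 ± 8021 bp in WT (SD, n = 3), a log2 ratio of -0.42. Of the 19 regions, 15 were shorter in cKO, 6 of them at an unadjusted limma p under 0.05, and 4 were longer. Of all 4577 desert regions, 2103 were shorter in cKO, and 7.54% were shorter at such a p, against 4.46% of all shared regions. The desert was picked for its low sum in these same libraries, so the counts of its regions repeat that choice. The ratio was -0.27 without WT replicate 3 and -0.67 with peaks of a −log10 q of at least 5.

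Gm42163-Cenpc1, with 11 regions, had 9179, 9899 and 9863 bp in cKO and 14246, 15738 and 10318 bp in WT, a scaled log2 ratio of -0.34, or -0.55 with peaks of a −log10 q of at least 5. Mctp2-Rgma, which borders the gene of a repulsive guidance molecule, had 16 regions with 28718, 28971 and 25542 bp in cKO and 27789, 29008 and 17249 bp in WT. Its scaled log2 ratio was 0.31, and 0.17 without scaling, where the genotypes overlapped. Gm6569-Adgrb1, which borders an adhesion receptor gene of the brain, had 10 regions with 13395, 10944 and 10754 bp in cKO and 11715, 11309 and 6169 bp in WT. Its scaled log2 ratio was 0.43, and 0.27 without scaling, where the genotypes also overlapped. In Mctp2-Rgma and in Gm6569-Adgrb1 the lowest unscaled length was that of WT replicate 3.

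Desert regions were then divided by the listed genes they lay beside. The 700 regions in deserts beside cortical transcription factors had a median log2 change of 0.03, with 44 longer and 50 shorter in cKO at an unadjusted limma p under 0.05 (13.4%). The 652 regions beside axon guidance and adhesion genes had a median of 0.00, with 38 longer and 47 shorter (13.0%). The 114 regions beside secreted signals and their receptors had a median of 0.03, with 7 longer and 15 shorter (19.3%). All 4577 desert regions had a median of 0.03 and 14.4%, and 0 regions of any list passed the adjusted threshold.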

How the data were processed

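H3K27ac was measured by ChIP-seq. The submitters' processing notes name mm10 and the tools FastQC, cutadapt, Bowtie2 (2.2.8) and MACS2 (2.1.1), whose settings were not found. The authors deposited a broad peak list for each library. The display score as deposited by the authors' peak caller went unused; the fold ratio and the −log10 p or q values, as deposited, served only to describe, rank or filter peaks within a list. The lowest −log10 q in the deposited lists was 1.31 to 1.39. Depth is unknown.

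Peaks were merged in Python 3.11.15 (pandas 2.3.3). RefSeq's GRCm38.p6 table gave 21779 protein-coding genes. Covered bp per region were scaled to equal total covered length and tested with limma 3.58.1 in R 4.3.3 (pseudocount 100 bp, batch covariate). The scripts were tested on simulated data.

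The regions, gene lists and markers were chosen with earlier results of these data known. Named were the 12 deserts with most regions, the 10 strongest regions, called regions or else the 5 smallest p per direction, up to 6 genes per list, up to 10 regions at other gene types and 3 regions either side of each threshold; further names were chosen after values were seen. Results on some items are not reported here.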

Additional observations from a re-analysis of the deposited data

How the results depend on the processing

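The number of desert regions was 1962 with peaks of a −log10 q of at least 5, 2188 where each library had to cover 50% of the region, 2605 beyond 200 kb and 694 beyond 100 kb of a gene of any type. Other settings gave 3757 to 6660, and leaving out each library gave 4601 to 5203. Deserts with 3 or more regions numbered 251 with the stricter peaks and 331 held 5 or more; leaving out each library gave 505 to 546. The log2 ratio of summed covered length was -0.121 without scaling and -0.0888 with the stricter peaks; leaving out each library gave -0.0330 to 0.0663. Without scaling the median change of all shared regions moved by -0.10.

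Desert regions passing limma as longer and shorter in cKO numbered 5 and 12 without batch, 4 and 13 with a pseudocount of 500 bp, 25 and 59 with the stricter peaks and 0 and 10 in lists of equal length. Leaving out each library gave 0 to 4 longer and 0 to 15 shorter, with 4 and 15 without cKO replicate 1 and 1 and 7 without cKO replicate 2. Both fits without a replicate 3 are the same fit as replicates 1 and 2 alone. With the stricter peaks the region in Rps24-Zmiz1 reversed to -0.76. The cause of these differences was not tested. With a replicate block in place of batch, 9 were longer and 16 shorter. Same-numbered libraries had deviations that correlated at 0.0757, 0.0288 and 0.124, and differently numbered ones at -0.106 to 0.0644. For each cKO library the same-numbered WT library gave the highest value. These values do not settle whether the numbers pair samples, and a pairing was not adopted. The numbers of desert regions passing in each fit stand without the share of all shared regions called there, so they do not compare desert regions with the rest. Peak lists hold no counts, so depth limits could not be assessed.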
